A study of Mus musculus with 24 samples.

Results

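Atf4 and 9 genes of the integrated stress response were followed in RNA sequencing of mouse BMDMs, macrophages that were differentiated in culture from bone marrow cells. The 10 genes were Atf4, Atf5, Ddit3, Trib3, Asns, Phgdh, Psat1, Chac1, Sesn2 and Ddit4, out of 24273 genes in the table. They are the rows that carry these names, chosen by the higher value of Atf4 in the FosKO libraries before stimulation. That contrast at 0 h was therefore used by the choice, and its values are given as a description without a test.

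BMDMs came from LysM-Cre mice and from FosKO mice, in which LysM-Cre was combined with 2 floxed Fos alleles. They were left untreated (0 h) or stimulated for 0.5, 1 or 2 h with LPS, the bacterial ligand of TLR4, at 100 ng/ml. Each of the 8 groups had 3 libraries. All mice were on the C57BL/6 strain, and all groups carried the Cre transgene, which sits at the Lyz2 locus and is active in myeloid cells. The study's text does not say whether the groups carried the same number of Cre copies. The controls are given as LysM-Cre alone in the series and LysM-Cre with a floxed Fos allele beside a normal one in the study's text, and the values cannot settle which was used. The age of the mice that gave marrow was not given in the sources used here. The study calls the libraries biological replicates, but the labels do not say that they came from separate animals, so p-values measure the spread between these samples. Values are the normalised log2 values that the authors deposited, so a difference of 1 is a 2-fold change. They are not stated to be scaled to gene length, and levels were therefore compared between libraries but never between genes.

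The integrated stress response begins when a kinase (PERK, GCN2, PKR or HRI) phosphorylates the translation factor eIF2alpha. Most protein synthesis then slows, while the mRNA of the transcription factor ATF4 is translated more, because of short reading frames ahead of its coding sequence. ATF4 binds DNA as a dimer with C/EBP and other bZIP proteins, and raises genes for amino acid uptake and synthesis, redox balance and, under prolonged stress, cell death. Because ATF4 is set largely at translation, an mRNA level does not report its protein.

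The element through which ATF4 and C/EBP dimers bind was searched as TGATGNAA on both strands, in windows from 250 bases before to 50 bases after each RefSeq start (build GRCm38.p6). It was found in the windows of 3 of the 10 genes, Asns, Chac1 and Trib3, and in 3.97% of all 32851 windows. The AP-1 site, which Fos-Jun dimers bind, was searched as TGANTCA and was found in the window of 1 gene, Ddit3, and in 7.81% of all windows. The cyclic AMP response element, TGACGTCA, was found in none of the 10 genes and in 1.79% of all windows. All 10 genes had a RefSeq window, 12 in all. A match is a description of these letters and not a bound site, and no match says only that these letters are not in this window. The stretches that hold the matches follow, 5′ to 3′ on the strand of the gene, with the matched letters in capitals.
Asns, chr6:7693214-7693243, minus strand, just before the RefSeq start: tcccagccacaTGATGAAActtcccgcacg
Chac1, chr2:119350999-119351098, plus strand, ending upstream of the start, match in reverse orientation: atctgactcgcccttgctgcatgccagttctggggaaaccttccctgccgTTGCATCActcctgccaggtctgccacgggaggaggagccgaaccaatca
Trib3, chr2:152344029-152344058, minus strand, just after the RefSeq start, match in reverse orientation: attagctcaggtTTACATCAgccgggcggg
Ddit3, chr10:127290543-127290642, plus strand, ending upstream of the start, AP-1 match: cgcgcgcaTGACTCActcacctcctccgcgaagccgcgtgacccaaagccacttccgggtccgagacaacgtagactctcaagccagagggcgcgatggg

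On mm10 the genes lay at chr15:80255184-80257541 for Atf4, chr7:44812256-44816658 for Atf5, chr10:127290774-127296288 for Ddit3, chr2:152337422-152344032 for Trib3 and chr6:7675169-7693254 for Asns. Phgdh lay at chr3:98313170-98339990, Psat1 at chr19:15904678-15947337, Chac1 at chr2:119351229-119354381, Sesn2 at chr4:132492032-132510501 and Ddit4 at chr10:59949669-59951834. All are protein-coding genes. Atf5 overlaps Nup62 and Il4i1, which lie on the opposite strand, and Ddit3 overlaps Mars and Gm4189, also on the opposite strand, as well as another protein-coding gene model named Ddit3 on its own strand. Sesn2 overlaps Gm12981, which is listed on its own strand, and Psat1 overlaps the pseudogene Gm3329 on the opposite strand. The RefSeq and GENCODE starts differ for some of these genes, so the Trib3 match, which follows the RefSeq start, lies before the GENCODE start, and the Asns match, which precedes the RefSeq start, lies inside the GENCODE gene. Library preparation was strand-specific, but whether reads were counted by strand was not stated, so reads of these pairs may be shared. Strand cannot separate the models named Ddit3, or Sesn2 from Gm12981.

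Several features of the libraries bear on every result. Fos, the targeted gene, was higher, not lower, in libraries with the FosKO label at 0 h (12.60 ± 0.17 against 11.11 ± 0.05, SD, n = 3), at 1 h (12.78 ± 0.10 against 11.15 ± 0.17) and at 2 h (12.80 ± 0.13 against 9.52 ± 0.10), and was lower at 0.5 h alone (12.75 ± 0.09 against 13.52 ± 0.08). Group means of Fos ran from 9.52 to 13.52 over time in LysM-Cre libraries and from 12.60 to 12.80 in FosKO libraries. Its level goes against the label at 3 of the 4 times, and whether the floxed exons lie in the counted part was not given in the sources used here. Groups are therefore named by their labels, and FosKO below stands for the libraries labelled FosKO. Lyz2, the locus that carries Cre, had group means of 16.10 to 16.32 in FosKO and of 10.94 to 11.33 in LysM-Cre libraries. Lyz2 thus differed with the genotype label at every time. Its part in the differences below cannot be told apart from that of the Fos alleles and was not tested. All 8 macrophage markers passed the filter, with Adgre1 at 14.61 to 15.21 and Csf1r at 14.95 to 15.28, whereas none of 6 B and T cell markers did. Of 5 dendritic cell markers 3 passed, while Flt3 and Siglech did not. The summed linear level of these 5 was 34.4 to 36.8 at 0 h and 114 to 126 at 2 h in LysM-Cre, and 34.1 to 43.1 and then 89.5 to 92.6 in FosKO, and its part in the results was not tested. Of 5 fibroblast and stromal markers 3 passed, while Dcn and Pdgfra did not. The summed linear level of these 5 was lower in FosKO without overlap at 0 h (17.5 to 24.2 against 25.5 to 32) and 1 h (16.9 to 23.3 against 23.6 to 32.3). It overlapped at 0.5 h (17.6 to 25.6 against 22.3 to 24.9) and 2 h (18.2 to 24.9 against 18 to 33.1), and its part was not tested. Of 8 neutrophil and precursor markers, 7 were in the table and 4 passed, while the defining genes Ly6g and Elane did not. The summed linear level of this list was lower in FosKO at 0 h (54.7 to 65.2 against 79.6 to 109), 0.5 h (70.1 to 77.3 against 95.1 to 117), 1 h (74.7 to 76.9 against 113 to 152) and 2 h (77.1 to 88.5 against 131 to 172), and its part in the results below was not tested. The 18S ribosomal RNA gene Rn18s-rs5 was at 16.65 to 17.00 in 5 libraries, all from 0.5 and 1 h, and at 18.57 to 19.39 in the other 19. In each of the 4 groups at 0.5 and 1 h, 1 or 2 libraries had the low value.

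Before LPS, Atf4 was 1.43-fold higher in FosKO. LysM-Cre libraries read 11.74, 11.71 and 11.74, and FosKO libraries read 12.16, 12.27 and 12.29, a difference of 0.51 (SE 0.04). Atf5, Ddit3, Trib3, Asns, Phgdh, Chac1, Sesn2 and Ddit4 were also higher in all FosKO libraries than in all LysM-Cre libraries, by 0.39 (Ddit4) to 0.99 (Ddit3), whereas Psat1 was lower in all of them, by 0.18. The groups did not overlap for any of the 10 genes, beside 44.5% of the 13901 genes tested, a count from which nothing is read because the choice used this contrast. In RNA from whole cultures, a larger share of cells that express a gene and more of its RNA in each cell cannot be told apart.

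Whether these genes also differ between the genotypes after LPS was tested in libraries outside the contrast at 0 h that chose them. These libraries carry the same genotype difference, and the genes were chosen with earlier results of these data known. The calls are therefore not an independent check of the choice. Across all 24 libraries, limma tested the 13901 genes with a linear value (2 raised to the deposited value) of 5 or more in 3 or more libraries. Adjusted p-values are by Benjamini-Hochberg over all of these, and those under 0.05 were called. All 10 genes were tested, and each exceeded the minimum in all 24 libraries. At 0.5 h all 10 genes were called, 9 higher and 1 lower in FosKO, beside 40.9% of all genes called either way. At 1 h, 8 were called, all higher, beside 33.9% of all genes. At 2 h, 8 were called, 7 higher and 1 lower, beside 44.6%. The median difference over the 10 genes was 0.61 at 0.5 h, 0.53 at 1 h and 0.29 at 2 h, whereas that of all genes tested was -0.003, 0.002 and 0.004.

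**Figure D1:**
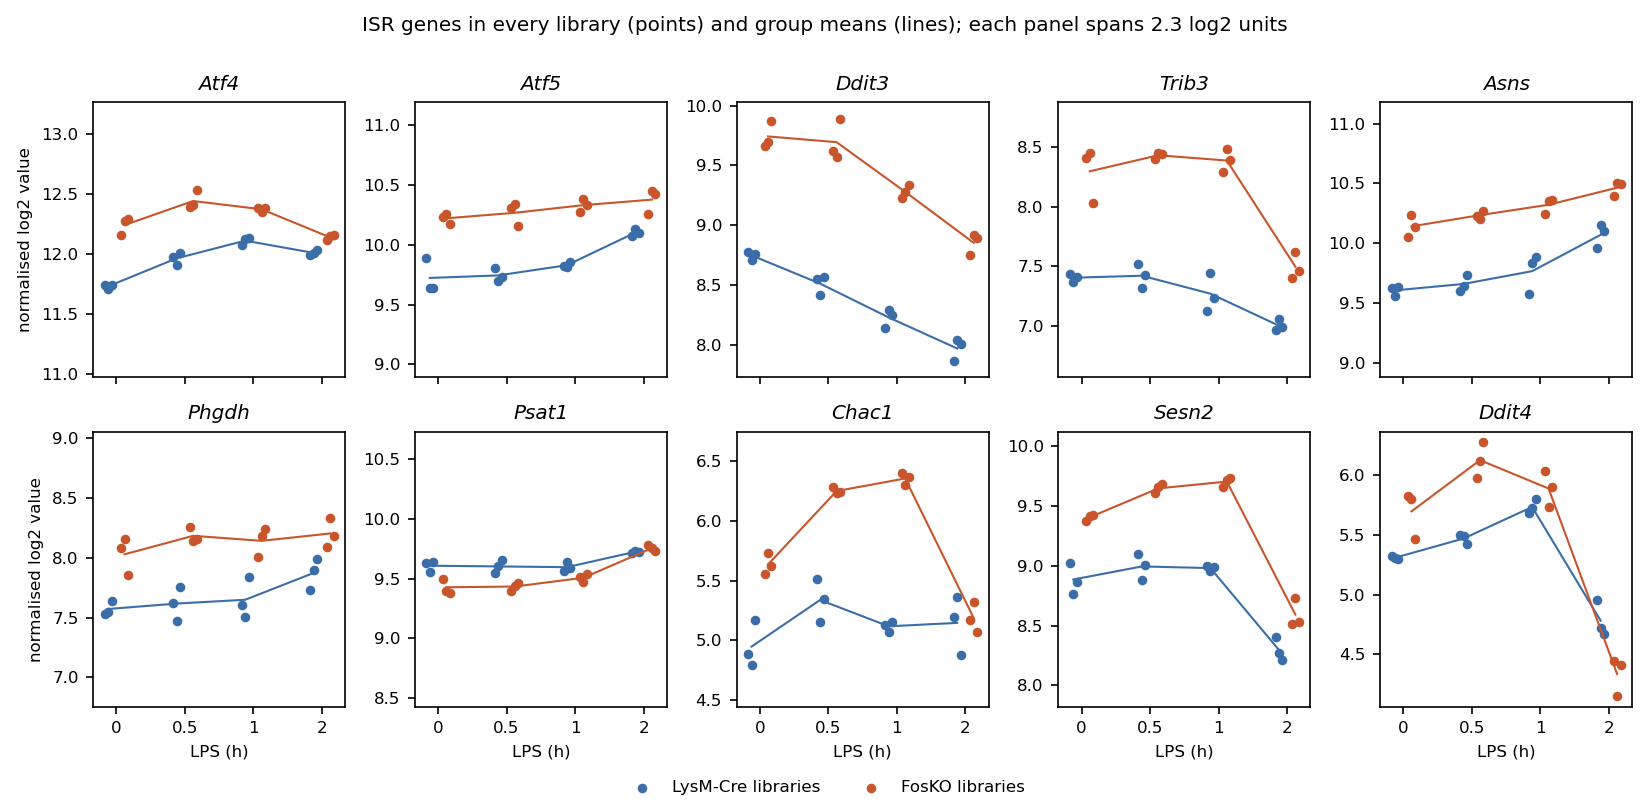
Normalised log2 values (vertical axis) of the 10 genes against hours of LPS (horizontal axis). Points are the 24 libraries, lines join the means of 3 libraries, blue is LysM-Cre and orange is FosKO. The colours are apart at 0 and 0.5 h in every panel, with Psat1 alone lower in FosKO, and at 2 h they overlap for Chac1 and Psat1 and have crossed for Ddit4.

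Atf4, the transcription factor at the centre of the pathway, was highest in FosKO at 0.5 h. LysM-Cre libraries read 11.98, 11.91 and 12.01 after 0.5 h, 12.07, 12.13 and 12.13 after 1 h, and 11.99, 12.01 and 12.03 after 2 h. FosKO libraries read 12.39, 12.41 and 12.53 after 0.5 h, 12.38, 12.35 and 12.39 after 1 h, and 12.11, 12.15 and 12.16 after 2 h. At each time all FosKO libraries were above all LysM-Cre libraries, although the gap narrowed to less than 0.1 between the closest libraries at 2 h. The difference was 0.48 at 0.5 h (95% interval 0.40 to 0.55, adjusted p = 2.57e-09, limma), 0.26 at 1 h (0.19 to 0.34, adjusted p = 8.66e-06) and 0.13 at 2 h (0.05 to 0.21, adjusted p = 0.00594). The difference at 2 h depended on the scaling, since after quantile normalisation it was -0.0031 (adjusted p = 0.943). Ordered from low to high, the groups were LysM-Cre at 0 h (mean 11.73), 0.5 h (11.96), 2 h (12.01) and 1 h (12.11), then FosKO at 2 h (12.14), 0 h (12.24), 1 h (12.37) and 0.5 h (12.44). Neighbours in this order overlapped for LysM-Cre at 0.5 and 2 h, and for LysM-Cre at 1 h and FosKO at 2 h.

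Atf5, an ATF4 relative that is also controlled at translation and is itself raised by the pathway, was higher in FosKO at all 3 times after LPS. LysM-Cre libraries read 9.80, 9.70 and 9.73 after 0.5 h, 9.82, 9.81 and 9.85 after 1 h, and 10.08, 10.13 and 10.10 after 2 h. FosKO libraries read 10.31, 10.34 and 10.16, then 10.28, 10.39 and 10.33, and then 10.26, 10.45 and 10.42. The groups did not overlap at any of these times. The difference was 0.52 (SE 0.06) at 0.5 h (adjusted p = 7.13e-07, limma), 0.50 at 1 h (adjusted p = 1.68e-06) and 0.28 at 2 h (adjusted p = 0.00087). Of the genes that overlap Atf5, Il4i1, a secreted amino acid oxidase, differed the other way at 1 h (-0.575, adjusted p = 0.0056) and 2 h (-1.055, adjusted p = 9.07e-06), as did the nucleoporin gene Nup62 at 2 h (-0.43, adjusted p = 1.41e-08). At 0.5 h Nup62 was higher in FosKO, as Atf5 was (0.105, adjusted p = 0.0292). Il4i1 at 0.5 h (-0.057) and Nup62 at 1 h (-0.086) were not called.

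Ddit3 encodes CHOP, a bZIP factor that ATF4 raises and that promotes death under long stress. Its genotype difference was the largest of the 10 genes at 0.5 and 2 h. LysM-Cre libraries read 8.55, 8.41 and 8.57 after 0.5 h, 8.14, 8.29 and 8.25 after 1 h, and 7.87, 8.04 and 8.004 after 2 h. FosKO libraries read 9.62, 9.57 and 9.89, then 9.23, 9.27 and 9.34, and then 8.75, 8.92 and 8.89. Every FosKO library was above every LysM-Cre library of its time. Ddit3 was 2.27-fold higher at 0.5 h (log2 difference 1.18, 95% interval 1.03 to 1.34, adjusted p = 2.37e-10, limma), 2.07-fold at 1 h (adjusted p = 1.46e-09) and 1.85-fold at 2 h (0.88, 0.73 to 1.04, adjusted p = 8.91e-09). Mars, the methionyl-tRNA synthetase gene that overlaps it, differed by at most 0.16 at these times. It was called higher in FosKO, as Ddit3 was, at 1 h alone (adjusted p = 0.0104).

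Trib3 encodes a pseudokinase that is induced by ATF4 and CHOP and restrains ATF4 in return. LysM-Cre libraries read 7.52, 7.32 and 7.43 after 0.5 h, 7.13, 7.45 and 7.24 after 1 h, and 6.97, 7.06 and 6.99 after 2 h. FosKO libraries read 8.40, 8.45 and 8.44, then 8.29, 8.48 and 8.39, and then 7.40, 7.62 and 7.47. The gap between the genotypes was about a full log2 unit through 1 h and was smaller at 2 h. Trib3 was 2.01-fold higher in FosKO at 0.5 h (adjusted p = 4.28e-08, limma), 2.16-fold at 1 h (adjusted p = 1.44e-08) and 1.41-fold at 2 h (adjusted p = 0.000202).

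Among the amino acid enzymes, Asns, which makes asparagine and whose promoter is a classical ATF4 target, was higher in FosKO at all 3 times. LysM-Cre libraries read 9.60, 9.64 and 9.73 after 0.5 h, 9.57, 9.84 and 9.89 after 1 h, and 9.96, 10.15 and 10.10 after 2 h. FosKO libraries read 10.23, 10.20 and 10.27, then 10.24, 10.35 and 10.36, and then 10.40, 10.50 and 10.49. Its difference was 0.58 at 0.5 h (adjusted p = 7.63e-07, limma), 0.56 at 1 h (adjusted p = 1.68e-06) and 0.39 at 2 h (adjusted p = 6.3e-05), without overlap between the groups.

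The enzymes of serine synthesis did not move together. Phgdh, which catalyses the first step, was higher in FosKO, with libraries at 8.26, 8.14 and 8.15 against 7.62, 7.47 and 7.76 after 0.5 h. They were at 8.01, 8.18 and 8.24 against 7.61, 7.50 and 7.84 after 1 h, and at 8.09, 8.34 and 8.18 against 7.74, 7.90 and 7.99 after 2 h. The groups did not overlap. The difference of Phgdh was 0.57 at 0.5 h (adjusted p = 8.67e-05, limma), 0.49 at 1 h (adjusted p = 0.000481) and 0.33 at 2 h (adjusted p = 0.00912). Leaving out LysM-Cre 2 h replicate 1 ended the call at 2 h (adjusted p = 0.0598), as did leaving out FosKO 2 h replicate 2 (adjusted p = 0.0578), each with a difference of 0.26. Psat1, which catalyses the second step, was lower in FosKO at 0.5 h, with libraries at 9.40, 9.44 and 9.46 against 9.54, 9.60 and 9.66. After 1 h its libraries were at 9.51, 9.47 and 9.53 against 9.56, 9.64 and 9.59, still without overlap, and after 2 h at 9.78, 9.75 and 9.73 against 9.71, 9.73 and 9.73. Its difference was -0.17 at 0.5 h (95% interval -0.24 to -0.09, adjusted p = 0.000662, limma), and it did not pass at 1 h (-0.09, adjusted p = 0.0596) or 2 h (0.03, adjusted p = 0.533). At 1 h Psat1 was called without LysM-Cre 1 h replicate 1 (-0.11, adjusted p = 0.0499) and after quantile normalisation (-0.11, adjusted p = 0.0234). Psph, which catalyses the last step, was not called at any of the 3 times (-0.01 at 0.5 h, 0.18 at 1 h and -0.04 at 2 h).

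Chac1 encodes an enzyme that degrades glutathione. LysM-Cre libraries read 5.51, 5.16 and 5.35 after 0.5 h, 5.13, 5.07 and 5.15 after 1 h, and 5.20, 5.37 and 4.88 after 2 h. FosKO libraries read 6.28, 6.23 and 6.24, then 6.40, 6.30 and 6.36, and then 5.17, 5.32 and 5.07. The genotypes were far apart at 0.5 and 1 h and overlapped fully at 2 h. Chac1 was 1.88-fold higher in FosKO at 0.5 h (adjusted p = 2.36e-06, limma) and 2.36-fold at 1 h (adjusted p = 6.66e-08), which was the largest difference of the 10 genes at that time. At 2 h the difference was 0.04 (95% interval -0.20 to 0.28, adjusted p = 0.813).

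Sesn2 and Ddit4 encode stress-induced proteins (Sestrin 2 and REDD1) that inhibit the growth kinase mTORC1. For Sesn2, LysM-Cre libraries read 9.10, 8.88 and 9.003 after 0.5 h, 8.99, 8.96 and 8.99 after 1 h, and 8.41, 8.27 and 8.21 after 2 h, and FosKO libraries read 9.61, 9.66 and 9.68, then 9.66, 9.72 and 9.74, and then 8.52, 8.73 and 8.53. Sesn2 was 1.57-fold higher in FosKO at 0.5 h (adjusted p = 1.36e-07, limma), 1.65-fold at 1 h (adjusted p = 5.3e-08) and 1.23-fold at 2 h (adjusted p = 0.00109), without overlap. Ddit4 changed sides instead. Its LysM-Cre libraries read 5.49, 5.49 and 5.42 after 0.5 h, 5.68, 5.72 and 5.80 after 1 h, and 4.95, 4.72 and 4.67 after 2 h, whereas its FosKO libraries read 5.98, 6.12 and 6.27, then 6.03, 5.73 and 5.89, and then 4.44, 4.15 and 4.41. Ddit4 was 1.57-fold higher in FosKO at 0.5 h (adjusted p = 6.25e-05, limma), did not pass at 1 h (0.15, 95% interval -0.07 to 0.38, adjusted p = 0.307), and was 1.36-fold lower at 2 h (-0.45, -0.68 to -0.22, adjusted p = 0.00226).

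**Figure D2:**
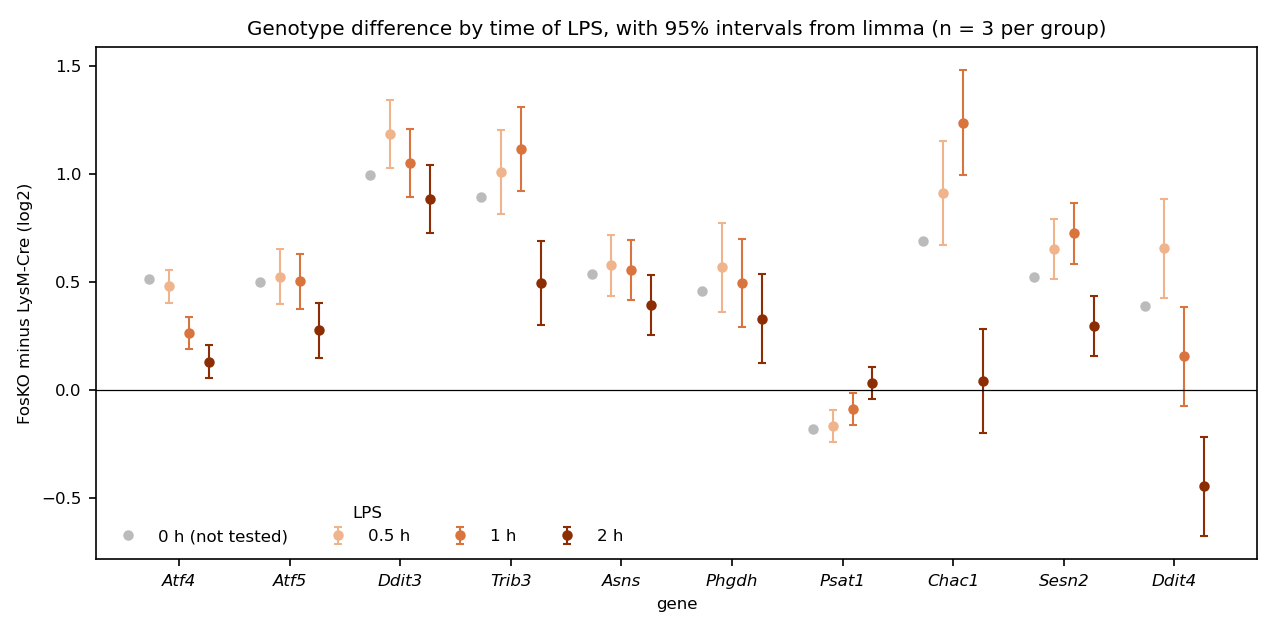
Genotype difference, FosKO minus LysM-Cre in log2 units (vertical axis), for each gene at 0, 0.5, 1 and 2 h of LPS. Points are differences of means of 3 libraries and bars are 95% intervals from limma. The grey points at 0 h belong to the contrast that was used, through Atf4, to choose the genes, and carry no interval. Differences at 0.5 h run from -0.17 (Psat1) to 1.18 (Ddit3), and at 2 h from -0.45 (Ddit4) to 0.88 (Ddit3), with that of Atf4 at 2 h lost after quantile normalisation.

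The 18S content moved with library and time but split both genotypes at 0.5 and 1 h, so the differences could be taken within each kind. For Atf4 at 0.5 h they were 0.53 among libraries with high 18S and 0.38 among those with low 18S, and at 1 h they were 0.29 and 0.25. For Ddit3 they were 1.25 and 1.05 at 0.5 h and 1.162 and 0.955 at 1 h. Chac1 gave 0.90 and 0.93 at 0.5 h and 1.198 and 1.291 at 1 h. Trib3, Asns, Phgdh, Sesn2, Atf5 and Ddit4 were higher in FosKO, and Psat1 lower, in both kinds at both times. The sizes differed by over 1.5 times for Asns at 1 h (0.784 with high and 0.384 with low 18S), Phgdh at 1 h (0.602 and 0.335), Ddit4 at 1 h (0.135 and 0.272) and Psat1 at 0.5 h (-0.122 and -0.26) and 1 h (-0.056 and -0.1). Each such value rests on 1 or 2 libraries per genotype and carries no test.

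The change of the genotype difference between times was tested with the libraries at 0.5 h as its base, so that it shares no library with the contrast that chose the genes. From 0.5 to 2 h the difference changed for 7 of the 10 genes, beside 19.1% of all genes called either way. It became smaller for Atf4 (-0.35, 95% interval -0.46 to -0.24, adjusted p = 6.35e-05, limma), Atf5 (-0.25, adjusted p = 0.0477), Trib3 (-0.51, adjusted p = 0.00892), Chac1 (-0.87, adjusted p = 0.000803) and Sesn2 (-0.36, adjusted p = 0.0107). For Ddit4 it turned over (-1.10, adjusted p = 4.15e-05), and for Psat1 the deficit closed (0.20, adjusted p = 0.00812). The call for Atf5 was lost with all genes tested (adjusted p = 0.0801), without the variance trend (0.0644), with the replicate number as a fixed term (0.0509) and among libraries with high 18S (0.181). It was also lost without any LysM-Cre 2 h library, LysM-Cre 0.5 h replicates 2 or 3, FosKO 0.5 h replicates 1 or 2, or FosKO 2 h replicate 1 (0.0617 to 0.145). That for Psat1 was lost among libraries with high 18S (0.15, adjusted p = 0.0904). Ddit3 (-0.30, -0.52 to -0.08, adjusted p = 0.0537), Asns (-0.18, -0.38 to 0.02, adjusted p = 0.207) and Phgdh (-0.24, -0.53 to 0.05, adjusted p = 0.27) did not pass. Ddit3 was called with a stricter minimum, with another scaling or with a replicate block (adjusted p = 0.0205 to 0.0481), and without FosKO 0.5 h replicates 1 or 2 or LysM-Cre 2 h replicate 1 (0.0257 to 0.0446). From 0.5 to 1 h the difference changed for Atf4 alone (-0.22, adjusted p = 0.0421), beside 1.06% of all genes. This call was lost under 5 alternatives (adjusted p = 0.0584 to 0.298) and without any FosKO 1 h library, LysM-Cre 0.5 h replicates 1 or 2, LysM-Cre 1 h replicates 2 or 3, or FosKO 0.5 h replicate 3 (0.0673 to 0.147).

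LPS itself moved most of these genes by 2 h, in both genotypes but not all in the same direction. For 9 genes the change from 0 h was tested, whereas the change of Atf4 is given without a test, because its values at 0 h chose the genes. The tests of the 9 use the same libraries at 0 h and so are not fully free of that choice. This holds for Ddit3 above all, whose deviations from group means moved with those of Atf4 (r = 0.833). All comparisons with 0 h in a genotype share the same 3 unstimulated libraries. In LysM-Cre, 1 of the 9 genes was called at 0.5 h, 2 at 1 h and 8 at 2 h, beside 7.24%, 35.8% and 60.8% of all genes. In FosKO, 3, 4 and 8 were called, beside 5.92%, 32.6% and 62.1%. At 2 h the calls were 4 higher and 4 lower in LysM-Cre and 3 higher and 5 lower in FosKO.

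**Figure D3:**
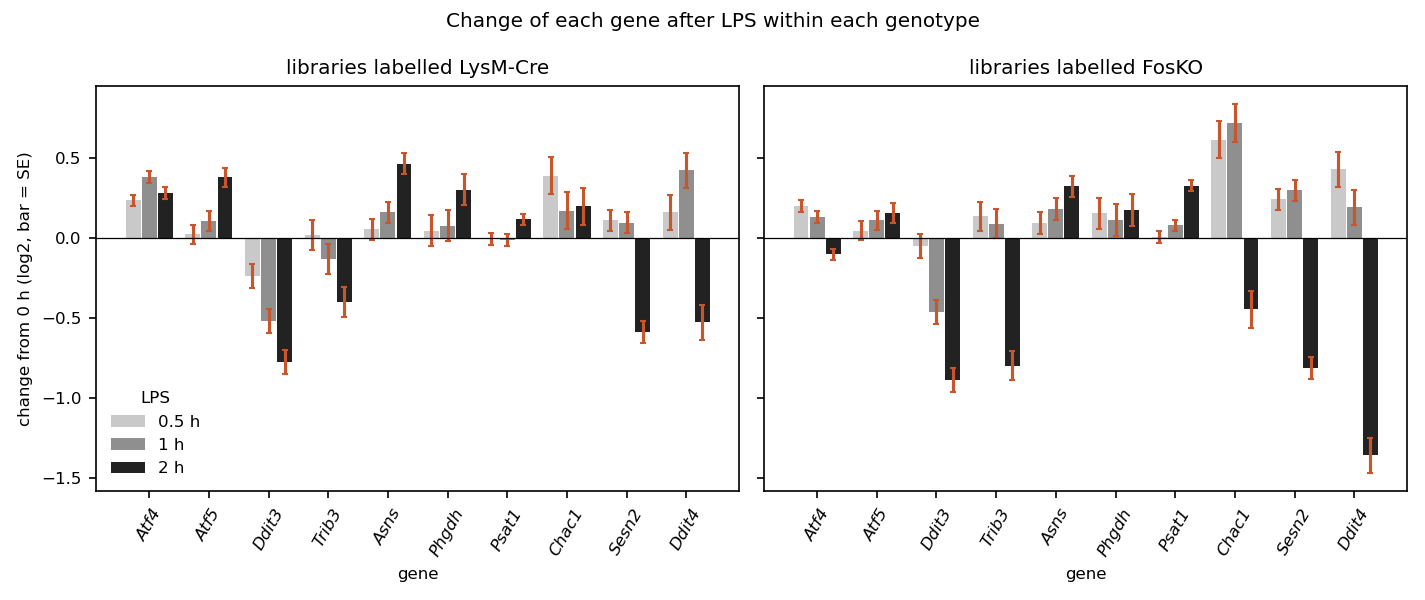
Change of each gene from 0 h in log2 units (vertical axis) after 0.5, 1 and 2 h of LPS, in LysM-Cre (left) and FosKO libraries (right). Bars are differences of means of 3 libraries, starting at 0, with SE from limma. Ddit3, Trib3, Sesn2 and Ddit4 point down at 2 h on both sides, and Atf4, which was not tested here, points up at 2 h on the left and down on the right.

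Atf4 was above its level at 0 h at all 3 times in LysM-Cre libraries, by 0.23, 0.38 and 0.28 in turn, and no library overlapped those at 0 h. In FosKO it was above by 0.20 and 0.13 after 0.5 and 1 h, but after 2 h all 3 libraries were under those at 0 h (a change of -0.10). Ddit3 and Trib3 fell in both genotypes. Ddit3 read 8.77, 8.71 and 8.76 at 0 h in LysM-Cre, and its change at 0.5 h was -0.24 (adjusted p = 0.0635, limma), which was called after quantile normalisation (0.0373), with only the groups compared (0.0296) and with either replicate block (0.0221 and 0.0332). It fell by 0.52 at 1 h (adjusted p = 1.05e-05) and by 0.78 at 2 h (adjusted p = 1.23e-08). From 9.66, 9.70 and 9.87 in FosKO it fell by 0.46 (adjusted p = 4.78e-05) and then 0.89 (adjusted p = 1.49e-09). With this fall, Ddit3 in FosKO at 2 h (8.75, 8.92 and 8.89) came down to about the level of unstimulated LysM-Cre libraries. Trib3, from 7.44, 7.37 and 7.41 at 0 h in LysM-Cre, fell by 0.40 at 2 h (adjusted p = 0.000866, limma). From 8.41, 8.44 and 8.03 in FosKO it fell by 0.80 (adjusted p = 2.17e-07).

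The mTORC1 inhibitors fell at 2 h as well. Sesn2 fell 1.5-fold in LysM-Cre (adjusted p = 1.38e-07, limma), from 9.02, 8.77 and 8.87, and 1.76-fold in FosKO (adjusted p = 9.68e-10), from 9.38, 9.42 and 9.42. Ddit4 rose and then fell. In LysM-Cre it went from 5.33, 5.30 and 5.29 up by 0.42 at 1 h (adjusted p = 0.00437, lost among libraries with high 18S, 0.121) and down to 0.53 below its start at 2 h (adjusted p = 0.000294). In FosKO it went from 5.83, 5.80 and 5.46 up by 0.43 at 0.5 h (adjusted p = 0.021) and to 1.36 below its start at 2 h (2.57-fold lower, adjusted p = 7.7e-10). The rise of Ddit4 in FosKO was lost with only the groups compared (adjusted p = 0.25), or without FosKO 0 h replicate 3 (0.1), FosKO 0.5 h replicate 2 (0.0505) or FosKO 0.5 h replicate 3 (0.134).

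Chac1 and Sesn2 showed early rises in FosKO. Chac1, from 5.55, 5.73 and 5.62 at 0 h, rose by 0.61 at 0.5 h (adjusted p = 0.00159, limma) and 0.72 at 1 h (adjusted p = 4.71e-05), and at 2 h was 0.45 below its start (a change of -0.45, adjusted p = 0.0022). In LysM-Cre, from 4.89, 4.79 and 5.17, its change was 0.39 at 0.5 h (adjusted p = 0.0452), 0.17 at 1 h (0.282) and 0.20 at 2 h (0.149). The first of these was lost under 5 alternatives (adjusted p = 0.0581 to 0.195) and without LysM-Cre 0 h replicates 1 or 2 or LysM-Cre 0.5 h replicates 1 or 3 (0.117 to 0.215), and the last was called without LysM-Cre 0 h replicate 3 (0.0352) or LysM-Cre 2 h replicate 3 (0.0173). Sesn2 rose in FosKO by 0.24 at 0.5 h (adjusted p = 0.0338) and 0.30 at 1 h (adjusted p = 0.00137). The earlier call for Sesn2 was lost with all genes tested (0.0538), among libraries with high 18S (0.0886) and without any FosKO 0 h library or FosKO 0.5 h replicates 2 or 3 (0.0538 to 0.129).

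Asns, Psat1 and Atf5 rose by 2 h in both genotypes, and Phgdh in LysM-Cre. Asns rose by 0.46 in LysM-Cre (adjusted p = 4e-06, limma), from 9.62, 9.56 and 9.63, and by 0.32 in FosKO (adjusted p = 0.000273), from 10.05, 10.23 and 10.14. At 1 h its change was 0.16 in LysM-Cre (adjusted p = 0.0684), called with a fixed (0.0167) or random (0.0408) replicate block and without LysM-Cre 1 h replicate 1 (0.26, 0.00198). In FosKO at 1 h it was 0.18 (adjusted p = 0.0437), a call lost under 5 alternatives (0.0582 to 0.237) and without FosKO 0 h replicates 1 or 3 or FosKO 1 h replicates 2 or 3 (0.0824 to 0.182). Psat1 rose by 0.12 in LysM-Cre (adjusted p = 0.00722), from 9.63, 9.56 and 9.64, and by 0.33 in FosKO (adjusted p = 6.98e-08), from 9.5001, 9.40 and 9.38. Phgdh rose by 0.30 in LysM-Cre (adjusted p = 0.0113), from 7.53, 7.55 and 7.64, and its change in FosKO was 0.17 (adjusted p = 0.13), from 8.08, 8.15 and 7.85. Atf5 rose by 0.38 in LysM-Cre (adjusted p = 1.45e-05), from 9.89, 9.64 and 9.64, and by 0.16 in FosKO (adjusted p = 0.0304), from 10.23, 10.26 and 10.17. At 1 h its change in LysM-Cre was 0.11 (adjusted p = 0.187), called without LysM-Cre 0 h replicate 1 (0.19, 0.0107). By 2 h Il4i1, which overlaps Atf5 on the opposite strand, rose by 5.05 in LysM-Cre and 3.87 in FosKO. Nup62, which also overlaps Atf5, rose by 0.89 in LysM-Cre and 0.36 in FosKO. The part of either gene in the rise of Atf5 was not tested. After quantile normalisation the rise of Psat1 in LysM-Cre was 0.03 (adjusted p = 0.429), that of Atf5 in FosKO was 0.02 (0.823) and that of Phgdh in FosKO was called (0.25, 0.0334). Without LysM-Cre 0 h replicate 2 the adjusted p for Psat1 in LysM-Cre was 0.0502, and without LysM-Cre 2 h replicate 3 that for Phgdh was 0.0615. The rise of Atf5 in FosKO was also lost with all genes tested (0.0507), among libraries with high 18S (0.0514) and without FosKO 0 h replicates 1 or 3 or FosKO 2 h replicates 2 or 3 (0.0533 to 0.132).

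Counts of called genes in the lists that follow stand beside 40.9% of all genes tested called either way at 0.5 h, 33.9% at 1 h and 44.6% at 2 h. Upstream of ATF4, the 4 eIF2alpha kinases differed in how they compared between the genotypes. Eif2ak2, which encodes the interferon-inducible kinase PKR, was higher in FosKO at 0.5 h (0.63, adjusted p = 2.54e-06, limma), 1 h (0.61, adjusted p = 4.84e-06) and 2 h (0.70, adjusted p = 5.75e-07). Eif2ak3 (PERK, the kinase of the endoplasmic reticulum) was not called at 0.5 h (-0.12) or 1 h (-0.11) and was lower at 2 h (-0.42, adjusted p = 7.49e-06). Eif2ak1 (HRI, which senses haem) was lower at 2 h (-0.14, adjusted p = 0.000754), and Eif2ak4 (GCN2, which senses uncharged tRNA) was higher at 2 h (0.11, adjusted p = 0.0492), with neither called earlier. Of 3 genes for subunits of the phosphatase that returns eIF2alpha to its active state, 3 were called higher in FosKO at 0.5 h, 2 at 1 h and 3 at 2 h. Ppp1r15a (GADD34, itself an ATF4 target) was higher in FosKO by 0.31 at 0.5 h (adjusted p = 0.000234), 1.11 at 1 h (adjusted p = 1.7e-11) and 1.03 at 2 h (adjusted p = 4.14e-11). Ppp1r15b, the constitutive subunit, was higher by 0.31, 0.27 and 0.35 (adjusted p = 5.7e-06, 4.66e-05 and 8.73e-07), whereas the catalytic subunit Ppp1ca differed by 0.09, 0.04 and 0.09, not called at 1 h (adjusted p = 0.116). Of the 8 genes for subunits of eIF2 and its exchange factor eIF2B, 2 were called higher at 0.5 h, none at 1 h, and at 2 h 1 was lower, Eif2b1 (-0.13, adjusted p = 0.00399), each a smaller share than that of all genes.

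Among 5 genes listed as partners and relatives of ATF4, Atf3 and Nupr1 were higher in FosKO at all 3 times. Nupr1, a small stress-induced chromatin protein, differed by 0.91, 0.71 and 0.57 in turn (adjusted p = 9.39e-08, 2.77e-06 and 2.5e-05, limma). Atf3, a repressor that is induced both by ATF4 and by TLR4, differed by 0.19, 0.72 and 0.44 (adjusted p = 0.000191, 3.41e-12 and 3.71e-09). Cebpb was higher at 0.5 h (0.36, adjusted p = 0.035) but did not pass at 1 h (0.13) or 2 h (-0.26). Cebpg, a dimer partner of ATF4, was not called at 0.5 h (0.10) and was higher at 1 h (0.16, adjusted p = 0.00687) and 2 h (0.13, adjusted p = 0.0147). Jdp2, which represses through AP-1 sites, was not called at 0.5 h (0.19) and was lower at 1 h (-0.37, adjusted p = 0.001) and 2 h (-0.71, adjusted p = 3.7e-07).

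Downstream of ATF4, most of the amino acid transporters were higher in FosKO at 0.5 and 1 h. Of 8 transporters, 6 were called higher and 1 lower both at 0.5 h and at 1 h, whereas 2 were higher and 2 lower at 2 h, beside 40.9%, 33.9% and 44.6% of all genes called either way. The calls at 2 h were thus close to that share. The median difference of this list went from 0.53 and 0.56 to 0.17. At 2 h the gene highest in FosKO was Slc7a11, the cystine importer (0.84, adjusted p = 5.93e-06, limma), and the lowest was Slc1a5, a glutamine importer (-0.23, adjusted p = 0.00505). Of 7 serine and one-carbon enzymes other than Phgdh and Psat1, 3 were higher and 2 lower at 0.5 h. At both later times 2 were higher and none lower, a smaller share than the 33.9% and 44.6% of all genes, and at 2 h the mitochondrial folate enzyme Aldh1l2 differed most (0.51, adjusted p = 0.0225). Of 6 other metabolic enzymes, 4 were higher and none lower at each time (all genes 40.9%, 33.9% and 44.6% either way), with the alanine transaminase gene Gpt2 highest at 2 h (0.27, adjusted p = 6.64e-05). Of 7 other target genes, 3 were higher and 3 lower at 2 h, beside 44.6% of all genes. Gdf15, a secreted stress hormone, was at 0.99 (adjusted p = 3.26e-10) and Ndrg1, a stress gene also raised by hypoxia, at -0.69 (adjusted p = 1.92e-08).

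The 20 cytosolic aminoacyl-tRNA synthetases, many of which ATF4 raises, had 12 genes higher and 3 lower at 0.5 h. The counts were 12 and 2 at 1 h, then 10 and 1 at 2 h, beside 40.9%, 33.9% and 44.6% of all genes called either way. Wars, which interferon also induces, differed most at 2 h (0.43, adjusted p = 3.52e-06, limma), and Hars was lower (-0.17, adjusted p = 0.00012). The ATF6 and XBP1 arm of the unfolded protein response, a separate branch that raises chaperones of the endoplasmic reticulum, had 13 of 19 genes higher and 2 lower at 0.5 h. These were 11 and 1 at 1 h, then 12 and 2 at 2 h, beside the same shares of all genes. Its ubiquitin ligase gene Syvn1 was higher at 2 h (0.33, adjusted p = 3.78e-06) and the partner of that ligase, Sel1l, was lower (-0.27, adjusted p = 9.75e-09). The medians of both lists were 0.085 to 0.165. After quantile normalisation the genes higher at 2 h numbered 6 of the synthetases and 3 of the ATF6 and XBP1 arm, and those of the latter at 1 h numbered 7. Together the 10 lists other than the 10 chosen genes held 90 genes, of which 87 were tested.

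**Figure D4:**
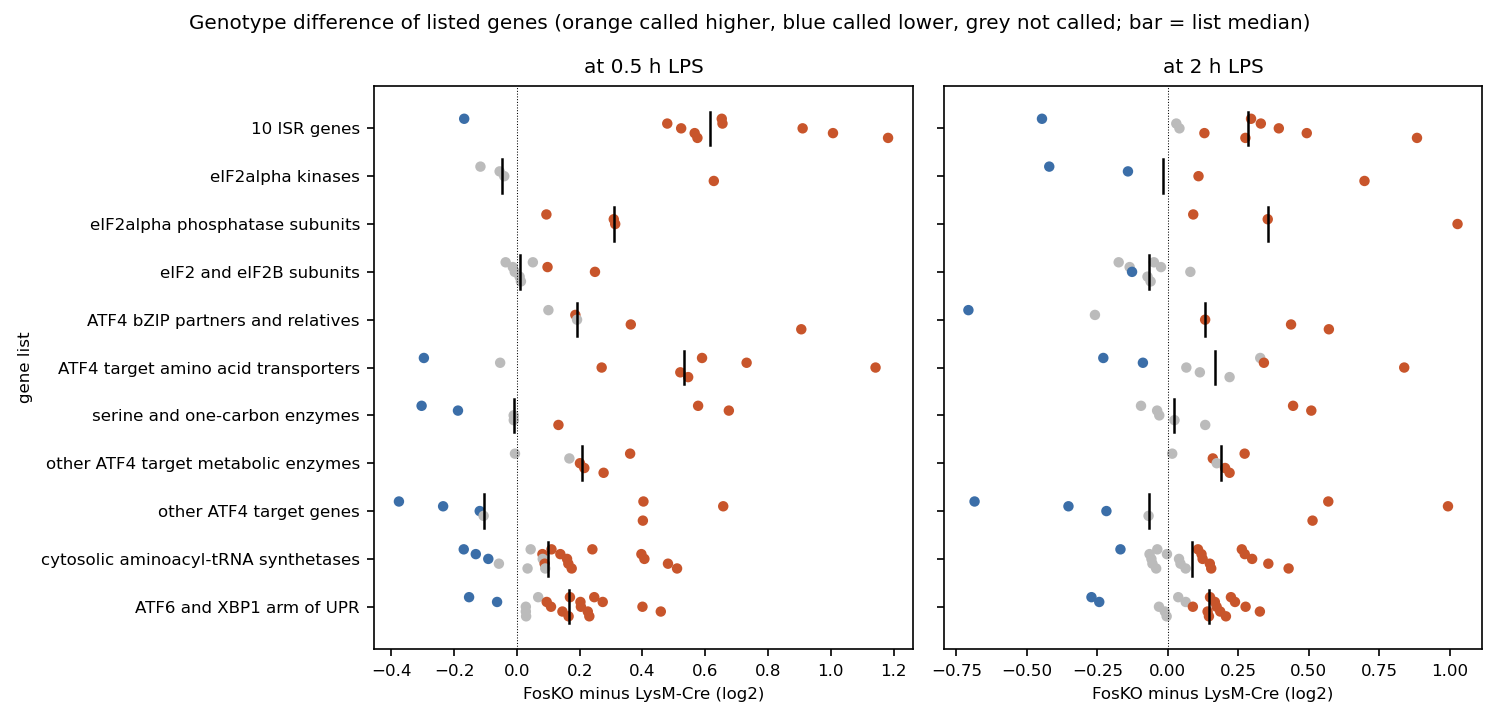
Genotype difference, FosKO minus LysM-Cre in log2 units (horizontal axis), of the tested genes of each pathway list at 0.5 h (left) and 2 h of LPS (right). Each point is a gene, orange called higher, blue called lower and grey not called, and the black bar is the list's median. The median of the 10 chosen genes is at 0.61 on the left and 0.29 on the right, and that of the transporters at 0.53 and 0.17.

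Across the 24 libraries the genes whose pattern was most like that of Atf4 were Fabp4, a fatty acid-binding protein (Pearson r = 0.94), Pex16 (0.907), 4930430E12Rik (0.906), Litaf (0.90) and Rnf149 (0.893). By Spearman's rho, 2 of these 5 remained among the nearest 5, Fabp4 and Litaf. Among the other chosen genes, the nearest was Chac1 (0.842), which ranked 42 among all genes. Next came Trib3 (0.762), Phgdh (0.75), Atf5 (0.737), Asns (0.732), Sesn2 (0.676), Ddit3 (0.654) and Ddit4 (0.466). Psat1 went against Atf4 (-0.537). By Spearman's rho Chac1 ranked 466 (0.74), behind Atf5 (0.768), Trib3 (0.762) and Phgdh (0.761). These r describe patterns that share the groups, the genotype and the libraries, among them the libraries at 0 h that chose the genes. No p was computed.

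Once each library was taken as its deviation from the mean of its group, Ddit3 moved with Atf4 (r = 0.833, rho = 0.729 over 24 libraries in 8 groups). The value was 0.784 without the 2 libraries farthest from the median of Atf4, FosKO 0 h replicate 1 and FosKO 0.5 h replicate 3, and 0.71 in the libraries at 0 and 2 h alone. Asns had r = 0.536, and the others lay between -0.122 and 0.284. In the libraries at 0 and 2 h alone Asns had 0.688, but Psat1 had -0.622, Ddit4 -0.577 and Trib3 -0.339. Deviations in 18S content had r = -0.132 with Atf4 and -0.042 with Ddit3. All of these are descriptions of 24 libraries that share a normalisation, and they carry no p.

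**Figure D5:**
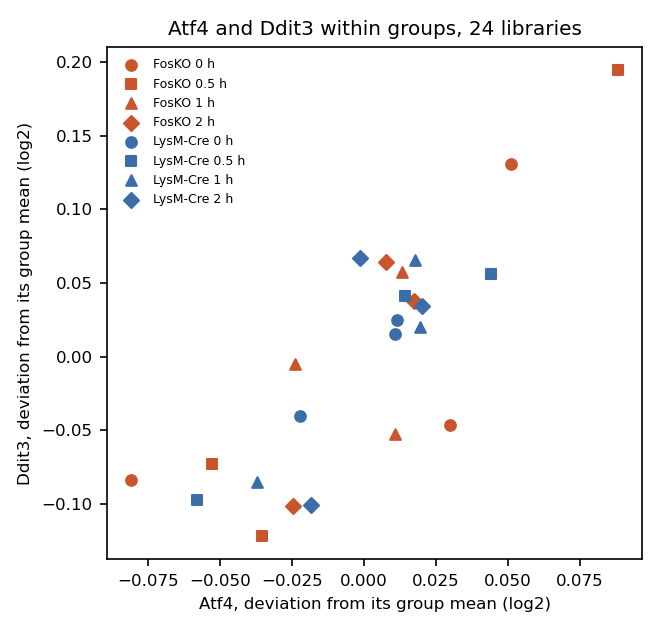
Deviation of Ddit3 (vertical axis) against that of Atf4 (horizontal axis) from the mean of the library's own group, both in log2 units. Each point is 1 of the 24 libraries, with colour for genotype and shape for time. The points rise together (r = 0.833), and FosKO 0.5 h replicate 3 lies at the top right.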

How the data were processed

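RNA of 24 libraries was sequenced from a single end on a HiSeq 2500. The authors used STAR 2.5.2a, RSEM 1.2.31 and DESeq2 1.16.1 on GRCm38 (mm10) according to the submitters' processing notes, and the study's methods name another version of DESeq2. The authors deposited 1 table of normalised log2 values, 24273 genes by 24 libraries, with Ensembl identifiers although RefSeq genes were named. It resembles a regularised log, which would understate differences of genes with few reads. The study's methods give a typical yield but not that of each library, so no counting interval was given. All value columns were matched to samples by title (0 were not).

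limma 3.58.1 (R 4.3.3) fitted 8 group means to the values as deposited (16 residual degrees of freedom, trended empirical Bayes) for 13901 genes with a linear value of at least 5 in at least 3 libraries. The median SD within groups was 0.06 to 0.08. The procedure was tested on simulated data, but no outcome of that test is reported here, so it lends no support to the calls. With 3 against 3 libraries an exact permutation test cannot give p below 0.1. Identity and position came from GENCODE M21, promoter windows from RefSeq (GRCm38.p6).

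The genes and lists were chosen with earlier results of these data known. Named were the 10 genes, the kinases, Ppp1r15a, Ppp1r15b, the partners and relatives of ATF4, from other lists the called genes with the largest rise and fall at 2 h, and the 5 genes most like Atf4. Psph, Il4i1, Nup62 and Mars were added after their values were seen. Alternatives covered filter, pseudocount, scaling, variance trend, groups fitted, replicate block, 18S content and single libraries left out. Within a genotype, deviations of same-numbered libraries at 0 h and a later time correlated weakly (r = 0.013 to 0.269). For FosKO at 0 and 0.5 h these r were 0.134 to 0.269. The main fit took the libraries as unpaired, and replicate blocks were among the alternatives.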

Additional observations from a re-analysis of the deposited data

Results flagged for a closer look

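The genotype difference (FosKO minus LysM-Cre) changed between times of LPS by a test of the change itself (limma, adjusted over all genes tested). From 0.5 to 1 h it changed for Atf4 by -0.22 (adjusted p = 0.0421). From 0.5 to 2 h it changed for Atf4 by -0.35 (adjusted p = 6.35e-05), Atf5 by -0.25 (0.0477), Trib3 by -0.51 (0.00892), Chac1 by -0.87 (0.000803), Sesn2 by -0.36 (0.0107), Psat1 by 0.20 (0.00812) and Ddit4 by -1.10 (4.15e-05). The calls for Atf4 at 1 h, Atf5 and Psat1 depended on the processing, as described with them. Atf4 also moved in opposite directions between 0 and 2 h, up in all LysM-Cre libraries and down in all FosKO libraries, with a gap between the changes of -0.38. This difference was not tested, because its values at 0 h chose the genes.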

How the results depend on the processing

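Counts of called genes in the genotype comparisons were 10 in every alternative at 0.5 h, 8 to 9 at 1 h and 7 to 8 at 2 h, single libraries left out included. The 1 call of LPS at 0.5 h in LysM-Cre became 0 with no filter, with a term for low 18S and with high 18S libraries alone, and 2 after quantile normalisation, and was 0 to 1 as single libraries were left out. Of the 2 calls at 1 h in LysM-Cre, 1 remained with high 18S libraries alone, and there were 3 with either replicate block, and 2 to 3 with single libraries left out. The 3 calls at 0.5 h in FosKO were 1 to 3 with single libraries left out, 1 without FosKO 0 h replicate 3, FosKO 0.5 h replicate 2 or FosKO 0.5 h replicate 3. The 1 change of the genotype difference from 0.5 to 1 h became 0 with no filter, without the variance trend, with only the groups compared, with a term for low 18S and with high 18S libraries alone, and was 0 to 1 with single libraries left out. From 0.5 to 2 h the count of 7 was 5 to 8. Of the 5 genes most like Atf4, 2 remained by Spearman's rho.

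The sign of the Atf4 difference at 2 h reversed after quantile normalisation (-0.0031), and its value at 0 h was then 0.46 and that of Psat1 -0.23. The cause was not tested. Scaling moved the median of all genes by at most 0.068 in size (-0.068). Among values of single genes and lists, 1990 of the alternatives were unchanged in direction and call. A call was lost, or the count of a list fell, in 71, and a call was gained in 22. In 4 an untested difference at 0 h changed in size. In 1, that of Atf4 at 2 h, the direction reversed and the call was lost. Without counts, precision for genes with few reads could not be assessed.

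The replicate numbers did not pair the genotypes, since deviations of same-numbered libraries correlated at -0.527 to 0.314. Within a genotype, same-numbered libraries at 0 h and a later time correlated at 0.013 to 0.269, and only for FosKO at 0 and 0.5 h was every pair over 0.1, where neither replicate block changed the 3 calls. With the number as a replicate block, fixed, counts were 10, 8 and 8 at 0.5, 1 and 2 h, and the change from 0.5 to 2 h was called for 7. With genotype and number as a random replicate block (correlation 0.112), LPS at 0.5 h in LysM-Cre gave 2 calls and the change from 0.5 to 2 h 8.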
